A study of Mus musculus with 23 samples.

Results

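Cytosolic ribosomal protein transcripts were examined in the hippocampus, cortex and cerebellum of mice lacking Bhlhe40, a basic helix-loop-helix transcriptional repressor. The genes were taken by symbol, as every annotated Rpl or Rps gene together with Rplp0 to Rplp2 and Rpsa, which gave 63 symbols on 81 probes. A gene was kept when a probe had a detection p-value under 0.05 on at least 3 arrays of a tissue. This left 57 genes, of 10336 detected symbols in all. Rpl14, Rpl17, Rpl39l, Rplp2 and Rps23 were detected on 0 arrays and Rpl6 on 1 hippocampal array, so these were not tested. Nearest the limit on the other side, Rpl3l was detected on 4, 3 and 3 arrays of hippocampus, cortex and cerebellum, and Rpsa on 4, 4 and 2, so that Rpsa was not tested in cerebellum.

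Gene expression was measured on Illumina mouse BeadChips, with 1 array for each dissected tissue of each mouse. All mice were naïve C57BL/6 males, 3 to 5 months old and fasted overnight. They were either wild-type (WT) or homozygous for a germline loss of Bhlhe40 (Bhlhe40 KO), and the KO line had been backcrossed into C57BL/6. The sample names number KO and WT mice in separate runs, and littermates were not stated, so genotype and cohort cannot be told apart. Hippocampus and cortex came from 4 WT and 4 KO mice, and cerebellum from 3 WT and 4 KO mice of the same set, so the tissues are not independent samples. Replicates were separate animals, and values are given in the order WT or KO mouse 1 to 4, except that the WT cerebella are those of mice 1, 3 and 4.

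The cytosolic ribosome consists of a small subunit, which reads the mRNA, and a large subunit, which joins amino acids, and each contains a single copy of most of its Rps or Rpl proteins. These genes are transcribed at high levels in all cells, and their mRNAs commonly begin at a cytosine within a run of pyrimidines, the 5′ terminal oligopyrimidine tract, through which mTOR signalling controls their translation. A few members, such as Rps27l, Rpl22l1, Rpl7l1 and Rpl3l, are paralogs of a core ribosomal protein. Ribosomal protein genes have many near-identical processed copies in the genome, and hybridisation of a probe to transcripts of such copies was not tested.

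Start sites of some named genes with a pyrimidine run are shown first, 30 bases each, 5′ to 3′ and with the run in capitals. They are RefSeq start sites of build GRCm38.p6, from 10 bases before the annotated start. The run of Rps27l lies wholly before the start, and those of Rpl28, Rps24 and Rpl34 span it. That of Rps15a begins at base 1, and those of Rpl13a, Rpl22l1 and Rps26 begin at bases 3, 4 and 5. Whether a run is a 5′ terminal tract was not tested. The first gene rose most in both hippocampus and cerebellum, Rpl28 and Rpl13a rose in both, Rps26, Rps24 and Rpl34 were among the largest cerebellar increases, Rps15a fell in cerebellum, and Rpl22l1 is a paralog.
Rps27l, chr9:66946076-66946105, plus strand: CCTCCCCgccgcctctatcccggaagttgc
Rpl28, chr7:4792955-4792984, plus strand: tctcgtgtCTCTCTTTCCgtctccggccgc
Rpl13a, chr7:45128726-45128755, minus strand: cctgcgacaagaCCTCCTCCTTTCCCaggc
Rps26, chr10:128626487-128626516, minus strand: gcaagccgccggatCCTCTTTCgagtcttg
Rps24, chr14:24490668-24490697, plus strand: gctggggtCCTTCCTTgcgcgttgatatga
Rpl34, chr3:130730318-130730347, minus strand: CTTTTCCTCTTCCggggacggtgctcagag
Rps15a, chr7:118116128-118116157, minus strand: tttctgccatCTTCCCTCgccggtgagtga
Rpl22l1, chr3:28805498-28805527, plus strand: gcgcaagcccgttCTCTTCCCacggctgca

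Of the 57 genes, 49 had a promoter in the RefSeq table, which reaches from 250 bases before the start to 50 bases from it. A run of at least 6 pyrimidines holding a C lay in the 30-base window around the start in 26 of the 49 (53.1%). The background was 24.9% of all 27025 gene symbols with a promoter, detected here or not. A gene counted when any of its promoters held the run or motif. Rpl36a, Rps25 and Rps15, which were also among the largest increases, had a promoter without such a run and are not shown above. The letters CGGAAG, the core bound by Ets family factors, occurred on either strand in 34 (69.4%), against 18.8% of all symbols. AAGATGGC, a YY1 core, occurred in 6 (12.2%), against 3.19%. CACGTG, the palindromic E-box that Bhlhe40 is known to bind, occurred in 5 (10.2%), against 8.09%. The 5 genes were Rpl13a, Rpl19, Rpl23, Rpl34 and Rps19, a share near that of all symbols. The E-box of Rpl23, whose brightest probe fell in cerebellum while its other probes rose, began 3 bases before the start and is not shown. Those of the other 4 genes, which rose in both hippocampus and cerebellum, are given with the motif in capitals.
Rpl13a, chr7:45128928-45128957, minus strand: cgctccgaaaccCACGTGacatcccgcccc
Rpl34, chr3:130730536-130730565, minus strand: cacctaacttctCACGTGacgttcctaccg
Rpl19, chr11:98026679-98026708, plus strand: tacccagaggacCACGTGaccaaacgccct
Rps19, chr7:24884781-24884810, plus strand: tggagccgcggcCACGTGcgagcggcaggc

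Values are normalized log2 signals, scaled to a common SD on each array, on which a difference of 1 is a doubling of the normalized signal. Array SDs before scaling were 1.46 to 1.66, so fold differences of the deposited signals are not the same. Bhlhe40 itself differed between KO and WT by -3.70 (SE 0.10) in hippocampus, -4.15 (SE 0.10) in cortex and -3.38 (SE 0.10) in cerebellum, and its KO arrays (7.94 to 8.50) were all below its WT arrays (11.67 to 12.34). The gene lies on chromosome 6, which carries 0 of the 57 ribosomal protein genes. Across the 23 arrays 50.9% to 55.5% of probes were detected. Median deposited signals of KO arrays (186.8 to 258.3) overlapped those of WT (164.4 to 207.5) in hippocampus, and ranged from 200.4 to 267.9 against 172.6 to 218.5 in cerebellum and 170.8 to 196.2 against 185 to 201.4 in cortex.

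Ribosomal protein transcripts were higher in the KO hippocampus and cerebellum, and no gene passed the test in cortex. In hippocampus 25 of 57 genes were higher and 0 lower in KO at an adjusted p under 0.05 (limma), where 7.18% of all 9834 genes tested were higher and 4.62% lower. In cerebellum 41 of 56 were higher and 2 lower, against 20% and 16.7% of 9449 genes. In cortex 0 of 57 were higher and 0 lower, against 0.113% and 0.0926% of 9720 genes, and 2 were higher and 1 lower at an unadjusted p under 0.05. Without KO mouse 3, 18 cortical genes were higher at an unadjusted p under 0.05 (median 0.14) and 0 after adjustment, and without KO mouse 1 the cortical median was -0.02. The median difference of the ribosomal protein genes was 0.25 in hippocampus, 0.67 in cerebellum and 0.05 in cortex, where all genes tested had medians of 0.0084, 0.014 and -0.0047. The hippocampal count was 8 without WT mouse 4, 9 without KO mouse 3 and 15 without WT mouse 2. It was 12 with all groups in 1 fit, 7 after correction for gene length, 0 with unmoderated statistics, and 0 with the level of choroid plexus markers, which were also higher in KO hippocampus and cerebellum, as a covariate. In bulk tissue, a change in the share of cells of a type and a change in RNA per cell cannot be told apart.

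**Figure D1:**
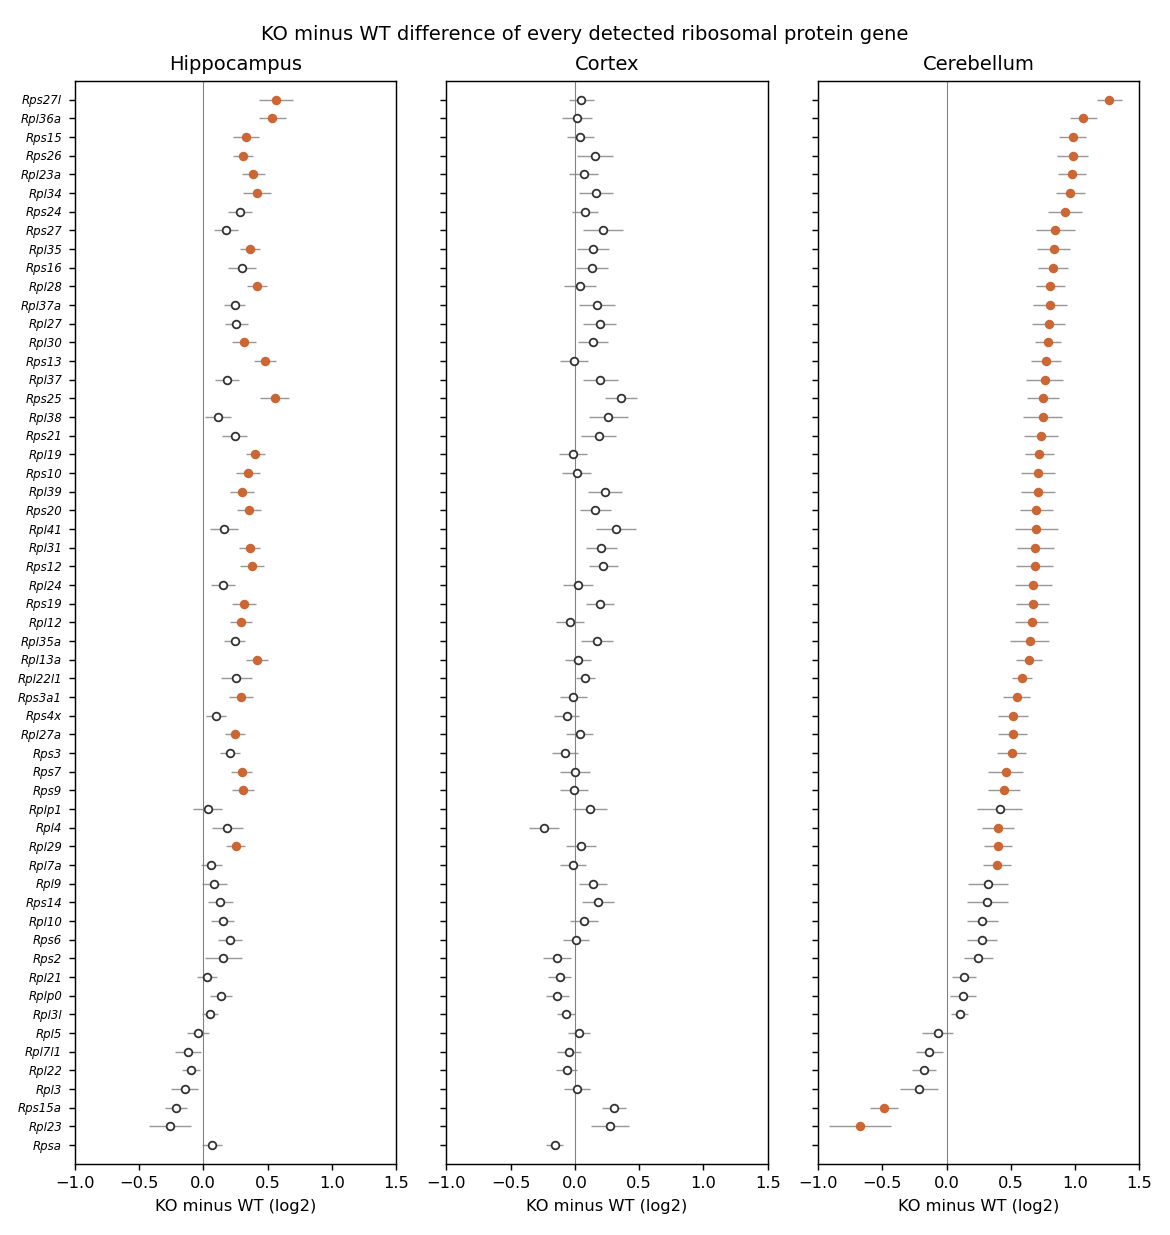
KO minus WT difference in normalized log2 signal of each ribosomal protein gene in hippocampus, cortex and cerebellum, ordered by the cerebellar difference. Bars are the SE of the limma fit and filled points passed at an adjusted p under 0.05. The hippocampal medians lie near 0.25, the cortical near 0.05 and the cerebellar near 0.67, and Rpl23 and Rps15a lie lowest in cerebellum.

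Single differences ranged from -0.26 to 0.57 in hippocampus, where 51 of 57 were above 0, from -0.24 to 0.36 in cortex, and from -0.67 to 1.26 in cerebellum, where 32 of 56 genes rose by over 1.5-fold, against 5.73% of all genes. That count was 9 after correction for gene length, and 24 with unmoderated statistics or without WT mouse 3. All 25 genes that rose in hippocampus were among the 41 that rose in cerebellum, 100% of the first list and 61.0% of the second. Of all genes, 612 rose in both tissues, 86.7% of the 706 that rose in hippocampus and 32.3% of the 1893 in cerebellum. The hippocampi and cerebella came from the same mice. Every KO array lay above every WT array for 18 hippocampal genes (9.24% of all genes did so), 0 cortical (1.76%) and 39 cerebellar (21.5%). KO arrays were all below WT arrays for Rpl22 in hippocampus (7.48% of all genes), for Rps15a in cerebellum (18.7%) and for 0 genes in cortex (2.51%). At the looser thresholds of the study's methods (unadjusted p under 0.05 in the contrast and over all groups, and a false discovery rate under 0.3), 33 were higher and 1 lower in hippocampus (15.4% and 12.3% of all genes), 0 and 0 in cortex (0.473% and 0.329%) and 45 and 2 in cerebellum (23.5% and 20.7%).

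Genes of both subunits rose. In hippocampus 13 of 34 large subunit genes (median 0.22) and 12 of 23 small subunit genes (median 0.30) rose. In cerebellum 23 of 34 large subunit genes (median 0.64) and 18 of 22 small subunit genes (median 0.69) rose, and 1 of each fell. The cortical medians were 0.06 and 0.05. A difference between subunits was not tested.

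The median deviation of the 56 ribosomal protein genes tested in every tissue from their mean over all 23 arrays gives 1 value for each array. This value also carries the level of the tissue, so genotypes are compared within a tissue. In hippocampus it was -0.19 to -0.06 in WT and 0.04 to 0.26 in KO, and in cerebellum -0.47 to -0.05 in WT and 0.16 to 0.53 in KO, without overlap in either tissue. In cortex WT (-0.20 to -0.02) lay within the range of KO (-0.24 to 0.30), with KO mouse 1 the highest array.

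**Figure D2:**
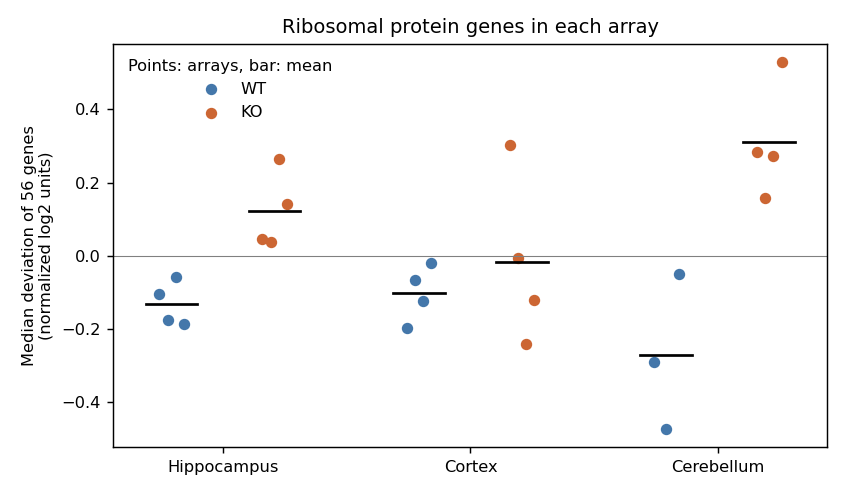
Median deviation of the ribosomal protein genes from their mean over all arrays of all tissues, in normalized log2 signal. There is 1 point for each array and a bar at each group mean. KO arrays lie above WT arrays in hippocampus (0.04 to 0.26 against -0.19 to -0.06) and cerebellum (0.16 to 0.53 against -0.47 to -0.05), and the genotypes overlap in cortex.

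Among small subunit genes, Rps27l, a paralog of Rps27 that p53 induces in human cells, changed most. Its hippocampal signals were 10.28, 10.13, 10.08 and 9.96 in WT and 10.61, 10.23, 11.05 and 10.83 in KO, and its cerebellar signals were 10.51, 10.17 and 10.23 in WT and 11.65, 11.50, 11.55 and 11.57 in KO. KO mouse 2 was the lowest hippocampal KO array and fell below WT mouse 1, and the cerebellar groups were separate. Rps27l rose by 0.57 in hippocampus (SE 0.13, limma adjusted p = 0.0133) and by 1.26 in cerebellum (SE 0.10, adjusted p = 6.89e-08), a 2.4-fold difference in normalized signal. In cortex, at 10.02, 10.10, 9.99 and 10.06 in WT and 10.28, 9.87, 10.18 and 10.04 in KO, the groups overlapped and the difference was 0.05 (SE 0.10, adjusted p = 0.898). The core gene Rps27 rose by 0.84 in cerebellum (SE 0.15, adjusted p = 0.000285) and differed by 0.17 in hippocampus (SE 0.09, adjusted p = 0.23).

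Rps25, which is used in internal initiation of translation, had hippocampal signals of 11.32, 10.75, 10.95 and 10.78 in WT and 11.55, 11.25, 11.54 and 11.69 in KO. WT mouse 1 was above KO mouse 2, and the other WT arrays were below all KO arrays. The difference in Rps25 was 0.75 in cerebellum (SE 0.12, adjusted p = 0.000147). Its cortical difference, 0.36 (SE 0.12, adjusted p = 0.39), was the highest of the 57 genes there and did not pass.

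Rps13 is a small subunit protein near the interface with the large subunit. Its hippocampal signals were 11.48, 11.75, 11.57 and 11.62 in WT and 11.97, 12.01, 12.31 and 12.07 in KO. The groups did not overlap, and the increase was 0.48 (SE 0.08, adjusted p = 0.00627), with 0.78 in cerebellum (SE 0.12, adjusted p = 6.59e-05) and -0.01 in cortex (SE 0.11, adjusted p = 0.987). Rps12 rose by 0.38 in hippocampus (SE 0.09, adjusted p = 0.0187).

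Rps15, Rps26 and Rps24 had the next largest cerebellar increases of the small subunit. Rps15, needed for export of the small subunit precursor from the nucleus, was at 11.17, 10.75 and 11.24 in WT cerebellum and 12.02, 11.98, 11.95 and 12.16 in KO. Rps26, which lines the mRNA exit channel, was at 11.22, 10.88 and 11.60 in WT and 12.21, 12.15, 12.18 and 12.31 in KO. For both genes WT mouse 3 was the lowest array and the genotypes were well apart, with increases of 0.98 (SE 0.11, adjusted p = 3.27e-06) for Rps15 and 0.98 (SE 0.12, adjusted p = 1.05e-05) for Rps26. Rps24, mutated in some human patients with Diamond-Blackfan anaemia as Rps26 is, rose by 0.92 in cerebellum (SE 0.13, adjusted p = 4.33e-05), from 12.85, 12.91 and 12.61 in WT to 13.52, 13.70, 13.56 and 14.07 in KO. In hippocampus it was at 12.73, 12.71, 12.62 and 12.65 in WT and 13.05, 12.64, 13.02 and 13.14 in KO, where KO mouse 2 was within the WT range and the difference of 0.28 did not pass (SE 0.09, adjusted p = 0.0604).

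Among large subunit genes, Rpl36a changed most. Its hippocampal signals were 11.15, 11.32, 11.04 and 10.93 in WT and 11.62, 11.36, 11.84 and 11.78 in KO, and its cerebellar signals were 10.69, 10.61 and 10.83 in WT and 11.83, 11.69, 11.56 and 12.02 in KO. No array of one genotype reached the other in either tissue, although KO mouse 2 was close to WT in hippocampus. Rpl36a rose by 0.54 in hippocampus (SE 0.10, adjusted p = 0.00817) and by 1.06 in cerebellum (SE 0.11, adjusted p = 9.79e-07). In cortex its difference was 0.02 (SE 0.12, adjusted p = 0.979), with KO mouse 1 the highest array at 11.51.

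Rpl23a, which lies at the exit of the nascent peptide tunnel, was between 11.70 and 12.07 in WT cerebellum and at 12.74, 12.86, 12.93 and 13.06 in KO. Rpl34 was at 11.38, 11.07 and 11.62 in WT and 12.36, 12.25, 12.20 and 12.47 in KO. Neither gene's groups overlapped, and the increases were 0.98 for Rpl23a (SE 0.11, adjusted p = 3.72e-06) and 0.96 for Rpl34 (SE 0.11, adjusted p = 5.6e-06). In hippocampus Rpl23a rose by 0.39 (SE 0.09, adjusted p = 0.0135) and Rpl34 by 0.42 (SE 0.11, adjusted p = 0.0218).

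Rpl13a, which in human cells also acts in the translational silencing of inflammatory mRNAs, rose by 0.42 in hippocampus (SE 0.09, adjusted p = 0.01), Rpl28 by 0.42 (SE 0.08, adjusted p = 0.00733) and Rpl19 by 0.41 (SE 0.08, adjusted p = 0.00817). Their cerebellar increases were 0.64, 0.81 and 0.72, and in cortex the same genes differed by 0.03, 0.04 and -0.02 without passing. Rpl35 rose by 0.83 (SE 0.13, adjusted p = 7.54e-05) and Rps16 by 0.83 (SE 0.11, adjusted p = 2.67e-05) in cerebellum.

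**Figure D3:**
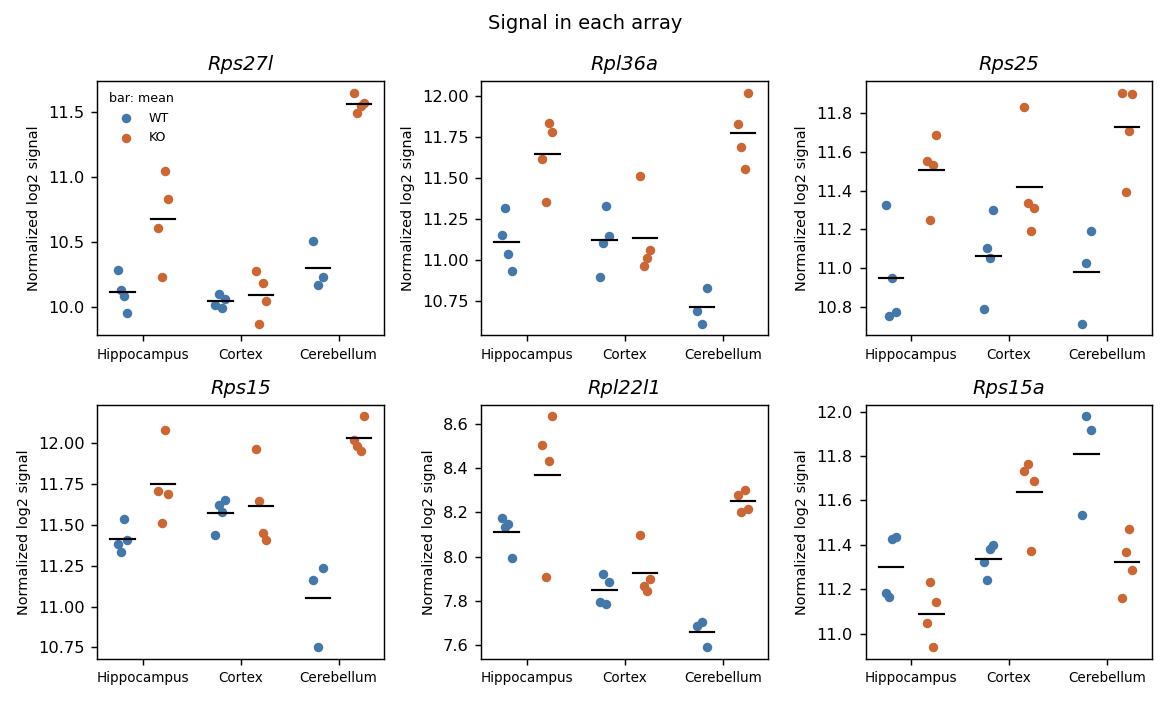
Normalized log2 signal of selected ribosomal protein genes on each array, by tissue and genotype, with a bar at the mean of each group. Rps27l and Rpl36a were higher in KO cerebellum by 1.26 and 1.06, and Rps15a was lower by 0.49.

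A pair of genes ran the other way in cerebellum. Rps15a, a small subunit protein, was at 11.54, 11.98 and 11.92 in WT cerebellum and 11.16, 11.37, 11.47 and 11.29 in KO, with no overlap, and fell by 0.49 (SE 0.11, adjusted p = 0.00174). In hippocampus it was at 11.18, 11.16, 11.43 and 11.44 in WT and 11.05, 11.23, 10.94 and 11.14 in KO, which overlapped, and the difference was -0.21 (SE 0.09, adjusted p = 0.113). In cortex it was at 11.32, 11.24, 11.38 and 11.40 in WT and 11.73, 11.76, 11.37 and 11.69 in KO, where only KO mouse 3 was within the WT range, and the difference was 0.30 (SE 0.09, adjusted p = 0.33).

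The decrease of Rpl23, a large subunit protein that binds Mdm2 in human cells, depended on the probe. Its brightest probe was at 15.32, 15.87 and 16.41 in WT cerebellum and 14.94, 14.92, 15.41 and 15.49 in KO, with KO mice 3 and 4 above WT mouse 1, and fell by 0.67 (SE 0.24, adjusted p = 0.0332). This probe had a mean deposited signal of 49141.8 in cerebellum, where the highest signals of the arrays were 51404.2 to 57704.4. The other probes of Rpl23, with mean signals of 14209.5 and 796, rose by 0.58 (SE 0.13, adjusted p = 0.00228) and 0.49 (SE 0.11, adjusted p = 0.00195) in a fit of all probes. The call on the brightest probe was lost without WT mouse 3, WT mouse 4, KO mouse 1 or KO mouse 2. In hippocampus the brightest probe differed by -0.26 and the other probes by 0.23 and 0.36.

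Hippocampus had 11 genes with several detected probes, cortex had 9 and cerebellum 9, and these shared a sign in 8, 3 and 7 genes. Probes disagreed in sign for Rpl23, Rps19 and Rps24 in hippocampus and for Rpl23 and Rpl7l1 in cerebellum. For Rps19, the bright probe differed by 0.32 in hippocampus and a dim probe, at a mean signal of 181.5, by -0.0018. Both probes of Rpl38 were higher in KO cerebellum, by 0.75 and 1.03. In hippocampus the bright probe, which stood for the gene, differed by 0.11 and did not pass (limma adjusted p = 0.501 in the fit of all probes). The dim probe rose there by 0.47 (adjusted p = 0.0194), so this gene's hippocampal call depended on the probe. So did some calls of genes that rose in hippocampus. There the second probes of Rps9 (0.21, limma adjusted p = 0.0999), Rpl29 (0.29, adjusted p = 0.0804) and Rpl27a (0.0057, adjusted p = 0.968) did not pass. In the same fit of all probes the bright Rpl27a probe had an adjusted p of 0.0503, and both probes of Rpl31 passed.

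**Figure D4:**
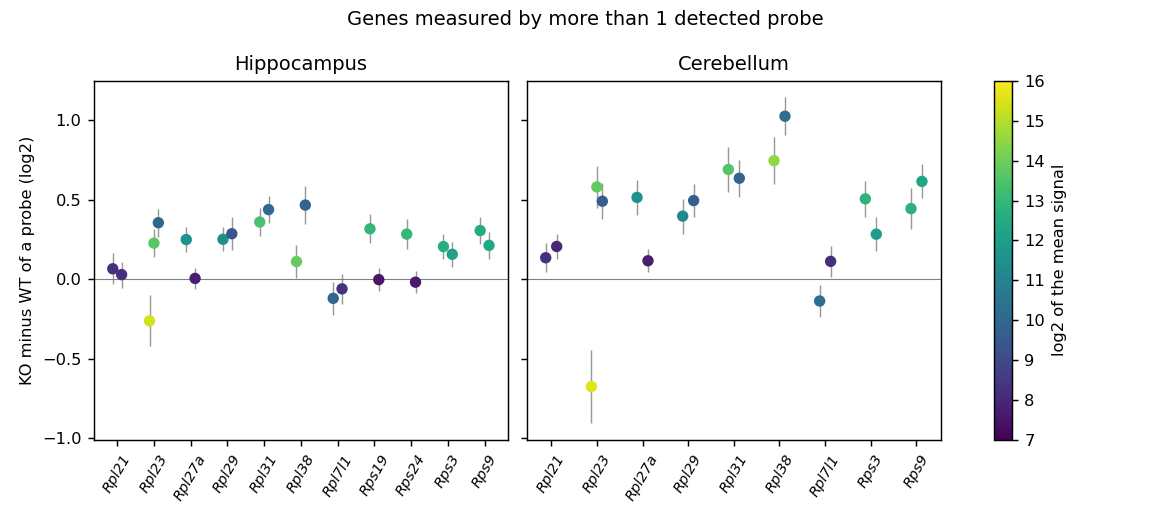
KO minus WT difference in normalized log2 signal of each detected probe, with its SE as a bar and its mean signal as the colour, for genes with several detected probes in hippocampus and cerebellum. In cerebellum the brightest Rpl23 probe lies at -0.67 and the other probes of the gene at 0.58 and 0.49.

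Across the gene group, the relation of the KO difference to signal was not the same in each tissue, with a Spearman rho of -0.207 in hippocampus, 0.516 in cortex and 0.017 in cerebellum over genes that share the same arrays. The 10 brightest genes included 1 that rose in hippocampus (median 0.10), against 24 of the other 47 (median 0.28). In cerebellum 5 of the 10 brightest rose (median 0.44), against 36 of the other 46 (median 0.67), and in cortex the brightest had a median of 0.17, against 0.04. Ribosomal protein genes are short, with a median genomic span of 3551 bases against 22601 for all genes tested in hippocampus, and across all genes the KO difference correlated with span at a Spearman rho of -0.357 in hippocampus, 0.202 in cortex and -0.341 in cerebellum. Within the ribosomal protein genes the values were -0.321, -0.361 and -0.463. Genes are not independent replicates. After correction for gene length, 7 ribosomal protein genes were higher in hippocampus (median 0.12) and 34 in cerebellum (median 0.38).

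The paralogs differed among themselves. Rpl22l1, which Rpl22 represses in mouse, was at 7.69, 7.70 and 7.59 in WT cerebellum and 8.28, 8.20, 8.30 and 8.21 in KO, with no overlap, and rose by 0.59 (SE 0.08, adjusted p = 1.41e-05). It was dim in WT cerebellum, at a mean deposited signal of 203, and was detected on 2 of the 3 WT arrays. In hippocampus it was at 8.18, 8.14, 8.15 and 7.99 in WT and 8.50, 7.91, 8.43 and 8.63 in KO, where KO mouse 2 was the lowest of all arrays, and the difference was 0.26 (SE 0.12, adjusted p = 0.176). Rpl22 itself differed by -0.10 in hippocampus, -0.06 in cortex and -0.18 in cerebellum, none of which passed. Rpl7l1 (-0.12, -0.04 and -0.14) and the muscle paralog Rpl3l (0.05, -0.07 and 0.10) passed in no tissue.

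Among proteins of the stalk that recruits elongation factors, Rpl12 rose by 0.30 in hippocampus and 0.66 in cerebellum. Rplp0, at the base of the stalk, differed by 0.14, -0.14 and 0.12 in hippocampus, cortex and cerebellum, and its stalk partner Rplp1 by 0.03, 0.12 and 0.41, none of which passed. Rpsa, which is also known as a laminin receptor, differed by 0.07 in hippocampus and -0.16 in cortex and did not pass.

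The KO effect was then compared between tissues in a fit of all arrays with mouse as a random block, over 56 ribosomal protein genes among 8947. The effect was greater in cerebellum than in cortex for 35 genes and smaller for 2, Rps15a and the brightest probe of Rpl23, against 18.4% and 15.2% of all genes. The greatest differences between these effects were those of Rps27l (1.21, SE 0.17, adjusted p = 2.1e-05), Rpl36a (1.05, SE 0.17, adjusted p = 8.27e-05) and Rps15 (0.94, SE 0.17, adjusted p = 0.000159). Between cerebellum and hippocampus, Rps27l (0.70, SE 0.17, adjusted p = 0.0324), Rps15 (0.65, SE 0.17, adjusted p = 0.0364) and Rps24 (0.64, SE 0.17, adjusted p = 0.0407) passed and 0 genes were smaller, against 1.1% and 0.659% of all genes, and 25 passed at an unadjusted p under 0.05. The cerebellar difference was nonetheless the higher for 49 of 56 genes. Between cortex and hippocampus, the effect differed for Rps15a alone (0.51, SE 0.14, adjusted p = 0.04), against 1.7% and 1.89% of all genes higher and lower, so that the increase in hippocampus was not shown to differ from cortex for any gene that rose there. Without KO mouse 1, the effect was smaller in cortex for 8 genes. Leaving out each mouse in turn gave 0 to 7 genes with a greater effect in cerebellum than in hippocampus, 0 without KO mouse 2, KO mouse 4, WT mouse 2 or WT mouse 3 and 7 without KO mouse 3.

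In WT mice, few ribosomal protein genes were higher in cerebellum, and those that were lower were near the share of all genes. Compared with hippocampus 16 of 56 genes were lower and 2 higher in cerebellum, against 25.7% and 28.1% of all genes, and compared with cortex 13 were lower and 3 higher, against 23.8% and 27.4%. Rps2, which lies at the mRNA entry channel, was at 13.15, 13.12, 13.69 and 13.21 in WT hippocampus and 12.49, 12.31 and 12.62 in WT cerebellum, lower by 0.82 (SE 0.15, adjusted p = 1.78e-05). Rpl12, part of the stalk base, was at 12.40, 12.53, 12.68 and 12.64 in WT cortex and 11.69, 11.46 and 12.12 in WT cerebellum, and its difference of -0.81 (SE 0.13, adjusted p = 3.39e-06) was the largest of that contrast. Rps15a ran the other way here too, higher in WT cerebellum than in hippocampus by 0.51 (SE 0.11, adjusted p = 0.00015), as did Rpl7l1 by 0.25 (SE 0.10, adjusted p = 0.0436).

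In WT cortex against hippocampus, Rpl7a (-0.48), Rps3a1 (-0.35), Rpl22 (-0.30) and Rpl22l1 (-0.27) were lower in cortex and 0 genes were higher, against 12.7% and 11.6% of all genes. For Rpl22l1 the WT order was hippocampus (8.11 ± 0.08, SD, n = 4), cortex (7.85 ± 0.07, n = 4) and cerebellum (7.66 ± 0.06, n = 3), and the difference between cortex and cerebellum did not pass (adjusted p = 0.139), although their WT arrays did not overlap. The signal of this gene in WT cerebellum was near the detection limit. For Rpl36a, hippocampus (11.11 ± 0.16) and cortex (11.12 ± 0.18) were close (adjusted p = 0.963), and cerebellum was lower (10.71 ± 0.11, adjusted p = 0.00863 against hippocampus).

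Other genes of the translation machinery did not all move with the ribosomal proteins. Of 24 initiation factors 0 rose and 4 fell in hippocampus (median -0.15), and 0 rose and 10 fell in cerebellum (median -0.23), where 4.62% and 16.7% of all genes fell. Eif5, the GTPase activator of the scanning complex, fell by 0.40 (SE 0.08, adjusted p = 0.00967) and 0.67 (SE 0.13, adjusted p = 0.000735) in these tissues, and Eif3c, a core subunit of the factor that holds the small subunit, fell by 0.31 and 0.68. The shares of all genes that rose, 7.18% in hippocampus and 20% in cerebellum, and those that fell are the background for each list that follows. Of 7 elongation factors 2 rose in hippocampus, among them Eef1b2, the exchange factor of elongation factor 1, by 0.31 (SE 0.08, adjusted p = 0.0215). In cerebellum 3 of the 7 rose, Eef1b2 by 0.63, and Eef2, the translocase, fell by 0.59 (SE 0.09, adjusted p = 8.86e-05).

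Of 7 other genes whose mRNAs carry the oligopyrimidine tract, 1 rose and 1 fell in hippocampus and 2 rose and 1 fell in cerebellum. Fau, whose product is a fusion with ribosomal protein S30, rose by 0.28 (SE 0.09, adjusted p = 0.0407) and 0.85 (SE 0.13, adjusted p = 8.12e-05), and Pabpc1, the poly(A) binding protein, fell by 0.29 and 0.25. Among ribosome assembly factors 2 of 28 rose and 1 fell in hippocampus, and 8 of 27 rose and 4 fell in cerebellum, of which the hippocampal shares and the cerebellar share that fell were near those of all genes. Nhp2 and Nop10, partners in the small nucleolar particles that modify ribosomal RNA, rose by 0.40 and 0.41 in hippocampus and by 1.06 and 0.96 in cerebellum, while Bop1, a large subunit assembly factor, fell by 0.58 in cerebellum.

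RNA polymerase I and III subunits gave 3 of 17 higher in hippocampus and 4 of 15 higher with 2 lower in cerebellum, the latter near the shares of all genes. Of 23 listed regulators in the mTOR and Myc pathways, 12 were tested in each of these tissues. Myc, Mycn, Larp1, Rptor and Tsc1 were among those not tested. Of the 12, 1 rose in hippocampus, the mTOR complex component Akt1s1 by 0.31 (SE 0.09, limma adjusted p = 0.0284), and 2 rose and 3 fell in cerebellum. The shares that rose were near those of all genes. No gene of these lists passed in cortex.

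Markers of choroid plexus, the epithelium that secretes cerebrospinal fluid, moved in the same tissues. Of 12 markers 9 were on the array and tested in hippocampus and all 9 were higher in KO (median 1.34), Ttr by 2.52 (SE 0.75, adjusted p = 0.0379), and their mean level was 7.94 to 9.96 on WT and 9.47 to 11.24 on KO arrays. In cerebellum 8 of 9 were higher (median 0.94), with mean levels of 9.02 to 9.69 in WT and 10.0 to 10.4 in KO, and in cortex 0 of 4 tested were higher, with 7.61 to 8.45 in WT and 7.61 to 8.03 in KO. Of 3 ependymal markers 1 was higher in hippocampus (mean level 8.04 to 8.32 in WT and 8.31 to 8.99 in KO) and 2 in cerebellum (7.75 to 7.85 and 8.33 to 8.56). With the choroid plexus level of each array as a covariate, 0 ribosomal protein genes passed in hippocampus (16 higher and 2 lower at an unadjusted p under 0.05, median 0.14), and 25 were higher in cerebellum (median 0.91). Because the choroid plexus level itself differed with genotype, without overlap in cerebellum, these fits cannot separate it from genotype. The part of these cells in the result was not tested.

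Markers of the dissected tissues were, on average over each list, highest in their own tissue. Hippocampal markers averaged 9.47 to 9.67 in hippocampus and at most 8.51 elsewhere, and cerebellar markers 12.43 to 12.66 in cerebellum and at most 8.49 elsewhere. Cortical markers averaged 9.35 to 9.91 in cortex and at most 9.10 elsewhere. The hippocampal list held Dspp in place of the intended Dsp, a different gene, at 7.56 in WT hippocampus and 7.51 in WT cortex. Some single markers differed less or the other way. Fezf2, a cortical marker, was at 9.84 in WT cortex and 10.01 in WT hippocampus, whereas Tbr1 was at 11.46 and 9.86. Wfs1, a hippocampal marker, was at 10.84 in WT hippocampus and 10.67 in WT cortex, whereas C1ql2 was at 12.12 and 8.28. None of these markers passed between genotypes in hippocampus or cortex, and in cerebellum 4 rose and 2 fell. Of the other cell types, 2 of 5 meningeal markers rose in cerebellum, 1 of 4 endothelial markers rose in hippocampus and 1 rose and 1 fell in cerebellum, 1 of 5 astrocyte markers rose in cerebellum, 1 of 5 microglial markers fell in hippocampus and 2 rose in cerebellum, and 1 of 2 red blood cell markers rose in cerebellum. Of 3 neuronal markers tested, 1 fell in hippocampus and 1 rose and 1 fell in cerebellum, and 0 of 5 oligodendrocyte markers passed.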

How the data were processed

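The authors exported intensity values and detection p-values from GenomeStudio 2011.1 without background subtraction, and computed the deposited Z score as log2 intensity centred and scaled within each array. Here log2 intensities were scaled in the same way, returned to the log2 scale with the mean SD (1.57) and mean (8.43) of all arrays, and checked against the deposited scores. Genes had a detection p-value under 0.05 on at least 3 arrays of the tissue, and the probe with the highest mean stood for the gene. Each tissue was fitted with limma 3.58.1 (R 4.3.3, trended eBayes) with Benjamini-Hochberg adjustment over all genes, and contrasts between tissues came from 1 fit with mouse as a random block. Scripts were tested on simulated data. Genes named were up to 10 passing genes with the largest differences in each direction in each tissue, up to 8 in each contrast between tissues, genes whose probes disagreed, the paralogs, and up to 3 passing genes of each other list. Rplp0, Rplp1, Rpsa and Rpl38 were named after their values were seen. The members and lists were chosen with earlier results of these data known. Of 25697 probes, 23978 had 1 gene symbol and 1719 none. Chip and position on it were not given in the sources used here and were not modelled. Precision is limited by having 3 or 4 arrays in a group.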

Additional observations from a re-analysis of the deposited data

Results flagged for a closer look

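An array stood apart from the other arrays of its group in 9 of 160 groups of 4 arrays checked over the named genes, where chance gives about 1 in 20. In WT hippocampus these were Rpl35 in mouse 1 (12.75), Rplp1 in mouse 3 (15.02) and Rps2 in mouse 3 (13.69). In KO hippocampus they were Rpl22 in mouse 1 (11.61) and Rpl35 in mouse 3 (13.27). In KO cortex they were Rpl4 in mouse 3 (9.92) and Rps2 in mouse 1 (13.33), and in KO cerebellum Rps13 in mouse 4 (12.60) and Rps2 in mouse 4 (13).

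The KO effect differed between tissues for the following named genes by the joint fit. Cortex minus hippocampus gave 0.51 for Rps15a. Cerebellum minus hippocampus gave 0.70 for Rps27l, 0.65 for Rps15 and 0.64 for Rps24. Cerebellum minus cortex gave 1.21 for Rps27l, 1.05 for Rpl36a, 0.94 for Rps15, 0.91 for Rpl23a, 0.84 for Rps24, 0.82 for Rps26, 0.80 for Rpl34 and 0.78 for Rps13, with -0.79 for Rps15a and -0.95 for Rpl23. The Rpl23 value is that of a probe near the highest signal of its arrays, and the other probes of the gene rose by 0.58 and 0.49 in cerebellum.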

How the results depend on the processing

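The number of ribosomal protein genes higher in KO hippocampus (25) was 12 with all groups in 1 fit, 7 after a gene length correction, and 0 with the choroid plexus covariate or with unmoderated limma statistics (16 and 31 at an unadjusted p under 0.05), with medians of 0.14 under the covariate and 0.12 after length correction against 0.25. The study's thresholds gave 1 lower gene. Leaving out 1 array gave 8 to 32 genes and medians of 0.19 to 0.29. Other normalizations gave 19 to 34 genes. In cerebellum the 41 genes became 25 with the covariate and 25 unmoderated, 36 to 45 without 1 array, and the median of 0.67 became 0.86 with median centring, 0.91 with the covariate, 0.38 after length correction, and 0.53 to 0.80 without 1 array. The 2 lower genes became 1 with median centring or the mean of probes, 0 with the covariate or unmoderated, 4 after length correction, and 1 to 2 without 1 array. No gene passed in cortex under any alternative, and its median was -0.02 to 0.14 without 1 array and -0.03 with median centring.

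Between tissues, genes with a smaller effect in cortex than in hippocampus (0) became 2 with neqc or cyclic loess, 3 with quantile normalization, 1 with median centring and 0 to 8 without 1 mouse, and genes with a greater effect (1) became 0 with median centring and 0 to 1. Genes with a greater effect in cerebellum than in hippocampus (3) became 6 with neqc or quantile normalization, 10 with loess or median centring, 1 with the mean of probes and 0 to 7 without 1 mouse. Against cortex, 35 greater became 22 (without KO mouse 4 or WT mouse 3) to 41, and 2 smaller became 1 with the mean of probes and 1 to 2. In WT, genes lower in cortex than in hippocampus (4) became 7 with neqc, quantile normalization, median centring or the mean of probes, and 2 to 4. Genes lower in WT cerebellum became 26 against hippocampus (16) and 20 against cortex (13) with median centring, and 12 to 19 and 6 (without WT mouse 3) to 15 without 1 mouse, and the 2 genes higher than in hippocampus became 1 with the mean of probes and 1 to 3. The cause of these shifts was not tested.

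Reversed values were those of Rpl23 with the mean of probes (0.11 in hippocampus, 0.13 in cerebellum, where the other probes are averaged in), of Rpl3l (-0.030 with the covariate and -0.022 after length correction in hippocampus, -0.018 after length correction in cerebellum) and of Rps27l in cortex without KO mouse 1 (-0.010). Among values of single genes, 269 in hippocampus and 280 in cerebellum kept their direction and call, and 41 and 12 no longer passed. Replicate numbers did not pair the samples: deviations of same-numbered replicates correlated at -0.14 to 0.30 in hippocampus, -0.35 to -0.01 in cortex and 0.03 to 0.15 in cerebellum. In cerebellum, WT replicates 2 and 3 were mice 3 and 4, so those pairs joined mice of different number. With the replicate number as a block, 25 genes were higher in hippocampus, 0 in cortex and 42 in cerebellum, with 3 lower and a median of 0.60. With 3 or 4 arrays in a group, the number of arrays limits these counts, and signals near the array's highest value limit Rpl23.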
